A study of Arabidopsis thaliana with 10 samples.

Results

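The 8 carpel and fruit patterning genes followed here are the transcription factor genes CRC (CRABS CLAW, AT1G69180), SPT (SPATULA, AT4G36930), HEC1 (AT5G67060), HEC2 (AT3G50330), HEC3 (AT5G09750), IND (INDEHISCENT, AT4G00120), ALC (ALCATRAZ, AT5G67110) and INO (INNER NO OUTER, AT1G23420). They were chosen by locus, with every probe whose accession led to 1 of these loci, and 9 probes were found: 2 for SPT and 1 for each other gene. The 8 genes are among 25433 loci with a probe on the array. CRC and INO lie on chromosome 1, HEC2 on chromosome 3, SPT and IND on chromosome 4, and HEC1, HEC3 and ALC on chromosome 5.

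RNA of whole Arabidopsis thaliana seedlings grown in short days on sucrose medium was hybridized to 10 one-colour Agilent arrays. Wild type (WT) had 2 arrays at 7 days and 2 at 15 days. LFYasEMF1, ult1-3 and LFYasEMF1/ult1-3 had 1 array each at 7 days and 1 each at 15 days. LFYasEMF1 is a transgenic line whose name stands for antisense EMF1 RNA under the promoter of LFY, a gene of young flower and leaf primordia, ult1-3 is a mutant allele of ULT1, and LFYasEMF1/ult1-3 carries both. The number of plants behind an RNA sample and the number of transgenic lines are not given in the sources used here. Nothing states that the WT pairs were separate cultures. The spread behind each p-value is that among these hybridizations and may in part be technical. It also includes a difference in clock genes within the WT pairs, whose cause was not tested. The log2 median of evening minus morning clock genes was 7.15 in WT replicate 1 and -5.22 in replicate 2 at 7 days. At 15 days it was 3.61 and -3.53. In whole seedlings, fewer cells that express a gene and less of its RNA per cell cannot be told apart.

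The gynoecium of Arabidopsis forms from fused carpels, and the fruit later opens along narrow valve margins. SPT, ALC, IND and the HEC genes encode bHLH proteins, several of which bind one another as pairs, and they shape the stigma, style and transmitting tract or the opening zone of the fruit. CRC and INO encode YABBY proteins, which are known for the polarity of lateral organs. EMF1 works with the Polycomb group to repress the flower programme during vegetative growth, and ULT1 is a trithorax-group factor that counters this repression.

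Signals are given as log2 of the processed signal over the 75th percentile of its array, so 0 is the level of that percentile and each unit is a doubling. A probe counts as measured where the scanner software called it well above background. Levels of different probes are not compared with each other. Between 31418 and 35097 spots per array were well above background, and the number of arrays limits the precision. The arrays lay on 3 slides: WT replicate 1 and LFYasEMF1, at either age, shared slide 1, whereas WT replicate 2, ult1-3 and LFYasEMF1/ult1-3 shared slide 2 at 7 days and slide 3 at 15 days. Slide 1 stood apart: the median of 3 evening clock genes minus that of 3 morning clock genes lay between 3.12 and 7.15 on its 4 arrays and between -5.22 and -2.94 on the other 6. Leaf markers (RBCS1A, LHCB1.3, CA1) and root markers (COBL9, EXPA7, RHD6) were well above background on every array. ULT1, the gene mutated in ult1-3, lay between -0.95 and -0.16 in WT, at -2.33 and -2.76 in ult1-3, and at -6.45 and -5.81 in LFYasEMF1/ult1-3. The double mutant differed from ult1-3 by -3.59 ± 0.41 (SE; adjusted p = 0.0125, limma) although both are labelled with the ult1-3 allele. Where the ULT1 probe lies relative to the lesion is not known here. EMF1 differed by 0.83 ± 0.36 (SE) between LFYasEMF1 and WT (adjusted p = 0.426, limma). Where the EMF1 probe lies relative to the antisense fragment is not given in the sources used here, so its level does not check the label.

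SPT, HEC1, HEC2 and ALC were well above background on 10 of 10 arrays, HEC3 on 7, CRC on 2, IND on 1 and INO on 0. The first 7 passed the filter of 1 array and were tested among 22353 genes. INO, which is needed for the outer integument of the ovule, lay between -9.88 and -9.03 on the 10 arrays, at background throughout, and has no fold here.

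**Figure D1:**
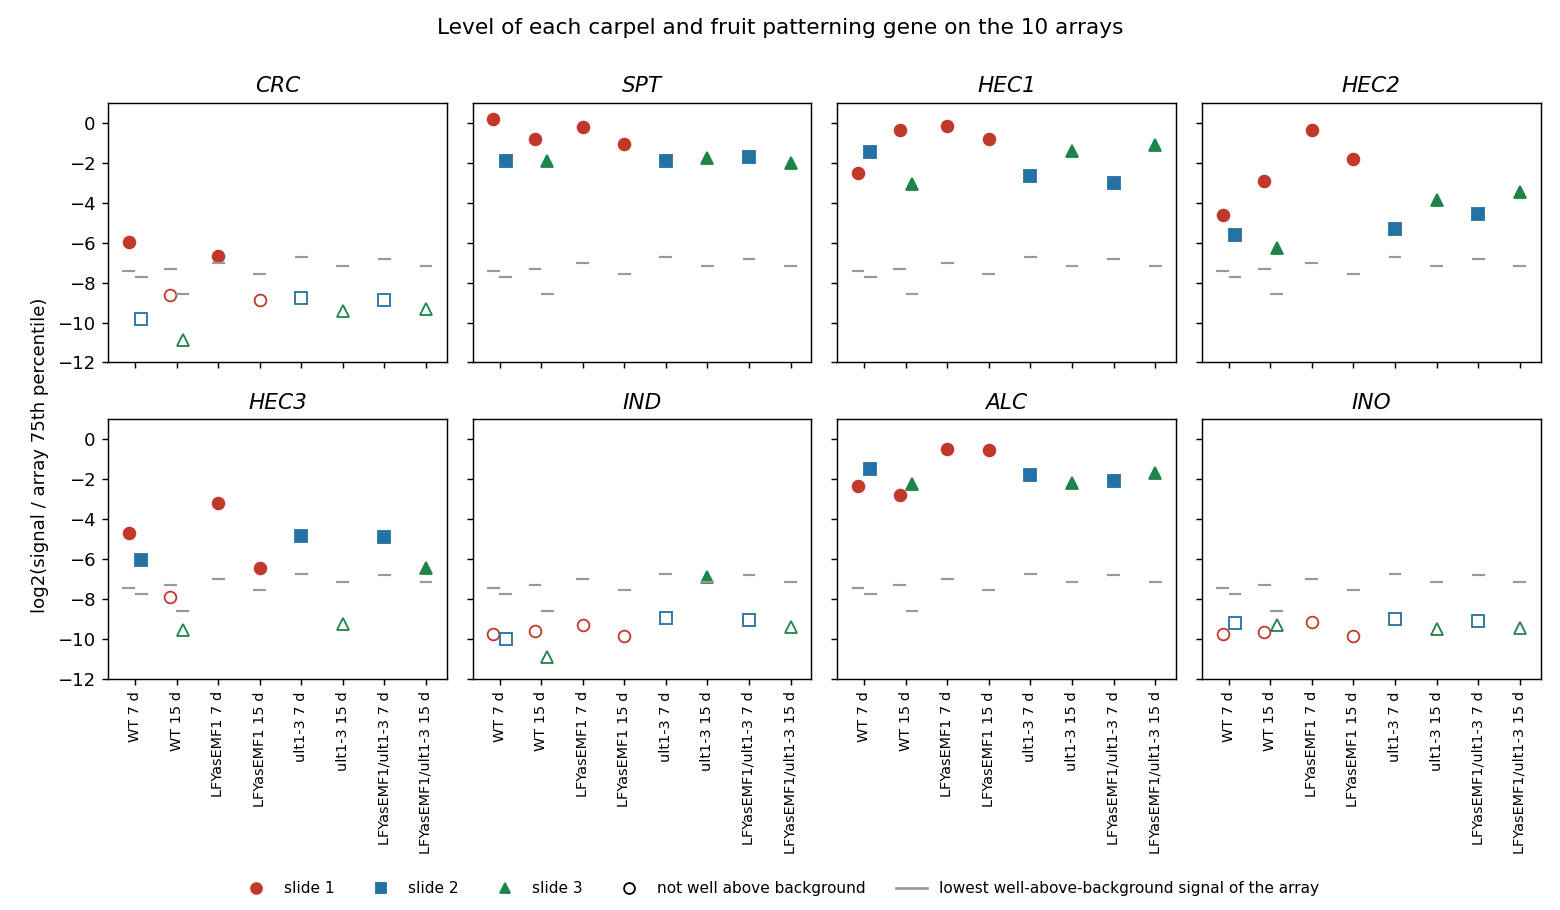
Each panel shows 1 gene, with the log2 signal relative to the array's 75th percentile on the vertical axis and the genotype and age on the horizontal axis. Each point is 1 array (SPT by its brighter probe), shape and colour give the slide, open points are not well above background, and short grey lines mark the dimmest signal called well above background on that array. ALC and HEC2 are higher on both LFYasEMF1 arrays than on all 4 WT arrays, SPT is higher on the 4 arrays of slide 1 than on the other 6, and INO is open on all 10.

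The comparison of LFYasEMF1 with WT asks what the antisense transgene changed in seedlings. No member passed an adjusted p of 0.05 in limma, in either direction, where 1.68% of all genes tested did. HEC2, HEC3 and ALC had an unadjusted p under 0.05 (3 of 7, beside 11.8% of all genes). The median fitted change of the 7 was 1.37 on the log2 scale, beside 0.0025 over all genes, but CRC and IND were at background on most or all of these arrays. For the 5 members measured on at least 3 arrays the median was 1.69. Against the WT array of the same slide, HEC2, HEC3 and ALC were higher at both ages, whereas SPT was lower at both (-0.37 and -0.23) and HEC1 differed in sign. ALC and HEC2 were higher on both LFYasEMF1 arrays than on every WT array (2 of 7, beside 8.32% of all genes in that direction).

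ALC, which is needed for the layer of cells where the fruit opens, had log2 levels of -2.34 and -1.50 in WT at 7 days, -2.78 and -2.22 in WT at 15 days, and -0.49 and -0.55 in LFYasEMF1 at 7 and 15 days. Both LFYasEMF1 arrays lay above all 4 WT arrays. The fitted change was 1.69 ± 0.35 (SE, 3.22-fold; adjusted p = 0.067, limma). Against the WT array of the same slide and age the difference was 1.85 at 7 days and 2.22 at 15 days. With slide as a block the change was 2.04 ± 0.31 (SE) and its adjusted p 0.0434, so ALC was called there; fitted within slide 1 alone the same change had an adjusted p of 0.0566. Without WT replicate 2 at 7 days it was called too, with 1.91 and an adjusted p of 0.0349 (limma). That fit leaves out the WT array with the highest ALC level, -1.50, the nearest to LFYasEMF1.

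HEC2, which acts with HEC1 and HEC3 in stigma and transmitting tract, had log2 levels of -4.63 and -5.63 in WT at 7 days, -2.92 and -6.28 in WT at 15 days, and -0.36 and -1.80 in LFYasEMF1 at 7 and 15 days. The LFYasEMF1 arrays were the highest of the 10, and the WT arrays spread widely at 15 days. The fitted change was 3.78 ± 0.94 (SE, 13.8-fold; adjusted p = 0.123, limma). Within the slide the difference was 4.27 at 7 days, a size that 0.447% of all genes reached, and 1.12 at 15 days, which 5.42% reached. The 2 WT arrays at 15 days differed by 3.36, a gap as large as or larger than that of all but 1.4% of genes. With slide as a block the change was 2.69 ± 0.83 (SE; adjusted p = 0.216, limma). Without WT replicate 1 at 15 days it was 4.45, with an adjusted p of 0.0388 (limma). That fit leaves out the WT array that shared slide 1 with LFYasEMF1 at 15 days.

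HEC3 had log2 levels of -4.70 and -6.04 in WT at 7 days, -7.92 and -9.55 in WT at 15 days, and -3.17 and -6.47 in LFYasEMF1 at 7 and 15 days. It was not well above background in WT at 15 days, and at each age the LFYasEMF1 array lay above both WT arrays, while over both ages the groups overlapped. The fitted change was 2.23 ± 0.68 (SE, 4.71-fold; adjusted p = 0.219, limma). At 15 days HEC3 was at least 2.79-fold higher in LFYasEMF1, a bound set by the lowest measured signals of the WT arrays (adjusted p = 0.98, limma).

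HEC1 had log2 levels of -2.51 and -1.47 in WT at 7 days, -0.35 and -3.04 in WT at 15 days, and -0.13 and -0.81 in LFYasEMF1 at 7 and 15 days. The groups overlapped, through WT replicate 1 at 15 days. The fitted change was 1.37 ± 0.80 (SE; adjusted p = 0.573, limma), and within the slide it was 2.38 at 7 days and -0.46 at 15 days.

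SPT, which promotes carpel fusion and also restrains seedling growth, had log2 levels at its brighter probe of 0.20 and -1.88 in WT at 7 days, -0.82 and -1.88 in WT at 15 days, and -0.17 and -1.05 in LFYasEMF1 at 7 and 15 days. The LFYasEMF1 arrays lay between the WT arrays. The fitted change was 0.48 ± 0.57 (SE; adjusted p = 0.794, limma), and with slide as a block it was -0.30 ± 0.21 (SE; adjusted p = 0.555, limma). CRC, needed for carpel growth and nectaries, was well above background on WT replicate 1 at 7 days, at -5.97, and on LFYasEMF1 at 7 days, at -6.69, both on slide 1. Its other WT arrays lay at -9.82, -8.63 and -10.87 and LFYasEMF1 at 15 days at -8.88, all at background. Against the WT array of its slide CRC differed by -0.72 at 7 days, opposite in sign to its fitted change of 1.04 ± 1.06 (SE; adjusted p = 0.756, limma). IND was at background in both groups.

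**Figure D2:**
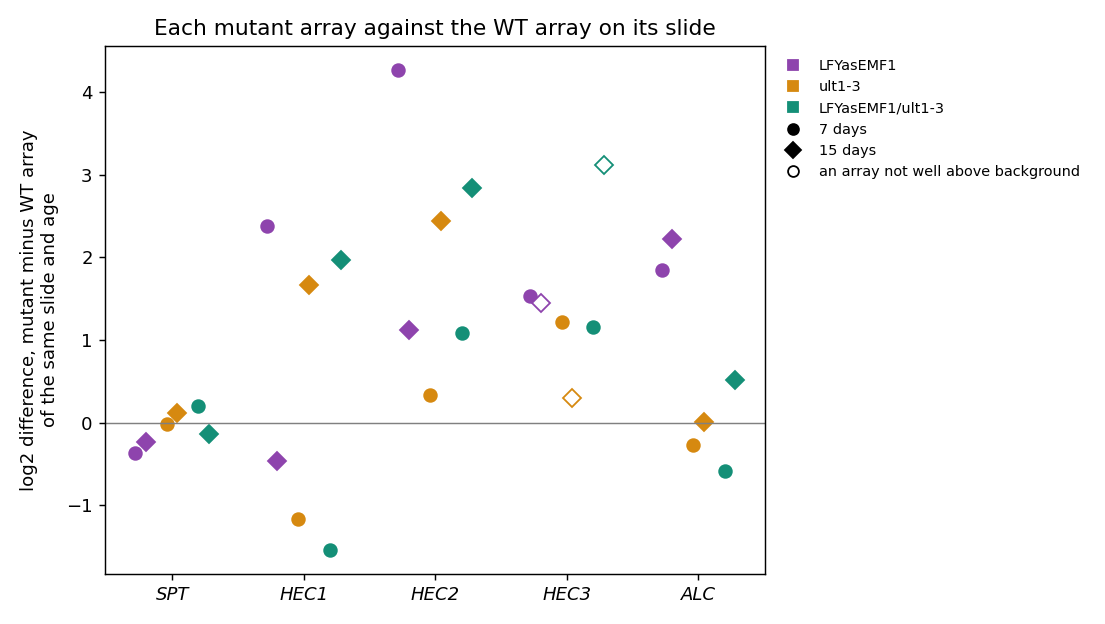
Each point is the log2 level of 1 mutant array minus that of the WT array on the same slide at the same age, by gene on the horizontal axis and with genotype by colour and age by shape; open points involve an array not well above background. For ALC both LFYasEMF1 points, 1.85 and 2.22, lie above the other 4, while for SPT all 6 points lie near 0.

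SPT differed between the slides, a contrast that within 1 genotype only WT offers, since the LFYasEMF1 arrays lay on slide 1 and those of ult1-3 and the double mutant on slides 2 and 3. Its brighter probe lay between -1.05 and 0.20 on the 4 arrays of slide 1 and between -2.02 and -1.68 on the 6 others. The second SPT probe did the same, with -2.71 to -1.77 on slide 1 and -3.72 to -3.08 on the others. Neither range overlapped, and 6.05% of all genes were higher on every array of slide 1. In the fit with slide 1 against slides 2 and 3 as a block, the slide term was 1.57 ± 0.35 (SE; adjusted p = 0.065, limma) for SPT, which did not pass, while 3.13% of all genes did. CRC was well above background on 2 arrays, both on slide 1, and entered the test only through them, so its slide term is not read here. The clock genes moved with the same slides, and their part in the SPT and CRC levels was not tested.

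ult1-3 was compared with WT to show the effect of the ULT1 mutation by itself. No member passed in limma, beside 0.0626% of all genes, and 1 of 7 had an unadjusted p under 0.05, beside 4.32% of all genes. That 1 was IND, which entered the test only through an ult1-3 array, so nothing is read from it; of the 5 members measured on at least 3 arrays there were 0. The median fitted change of the 7 was 0.01, beside -0.02 over all genes. ALC had log2 levels of -1.77 and -2.21 in ult1-3 at 7 and 15 days, inside the WT range, and changed by 0.22 ± 0.35 (SE; adjusted p = 0.949, limma; 95% interval -0.59 to 1.02).

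HEC2 had log2 levels of -5.29 and -3.84 in ult1-3, HEC1 -2.63 and -1.38, and SPT -1.89 and -1.76, at 7 and 15 days. The HEC2 and HEC1 values lay within the WT ranges, whose upper ends came from slide 1. The lower ends, -6.28 for HEC2 and -3.04 for HEC1, came from WT replicate 2 at 15 days. That array is also the same-slide WT array for ult1-3 at 15 days. Against the WT array of the same slide, HEC2 differed by 0.34 at 7 days and 2.44 at 15 days, a size that 0.631% of all genes reached at 15 days. HEC1 differed by -1.16 and 1.67, the latter reached by 1.23% of genes. With slide as a block the changes were 1.39 ± 0.83 (SE; adjusted p = 0.542, limma) for HEC2 and 0.25 ± 1.00 (SE; adjusted p = 0.929, limma) for HEC1. HEC3 was measured in ult1-3 at 7 days, at -4.83, and at background at 15 days, at -9.25. IND, which sets the valve margin of the fruit, was well above background on a single array of the study, ult1-3 at 15 days, at -6.92. The WT arrays of that age lay at -9.61 and -10.89, at background. This single array is also what let IND pass the filter, and no fold is drawn from it. At 7 days IND was at background in ult1-3, at -8.98.

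The double mutant LFYasEMF1/ult1-3 was set against LFYasEMF1 to ask what loss of ULT1 changes when the transgene is present, the question the title of the study names. No member passed in limma, beside 0.899% of all genes, and 2 of 7 (HEC2 and ALC) had an unadjusted p under 0.05, beside 19.5% of all genes. The median fitted change of the 7 was -1.33, beside -0.01 over all genes, but CRC and IND were at background on most or all of these arrays. The median of the 5 members measured on at least 3 arrays was -1.37. SPT, HEC1, HEC2 and ALC were lower on both double-mutant arrays than on both LFYasEMF1 arrays (4 of the 5 members measured on at least 3 arrays, beside 21.3% of all genes in that direction). CRC was at background on 3 of these 4 arrays and is not counted. LFYasEMF1 lay on slide 1 and the double mutant on slides 2 and 3, so this contrast crosses slides throughout.

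ALC had log2 levels of -2.09 and -1.70 in LFYasEMF1/ult1-3 at 7 and 15 days, against -0.49 and -0.55 in LFYasEMF1. The double mutant lay inside the WT range of -2.78 to -1.50. The change was -1.37 ± 0.40 (SE; adjusted p = 0.143, limma) and, with slide as a block, -2.07 ± 0.44 (SE; adjusted p = 0.112, limma). The interaction of transgene and mutation, the amount by which the double mutant differs from the sum of both single changes, was -1.59 ± 0.53 (SE; unadjusted p = 0.0175, adjusted p = 0.889, limma) for ALC, and no member passed for it, beside 0.139% of all genes, with 1 of 7 at an unadjusted p under 0.05, beside 4.57%.

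HEC2 had log2 levels of -4.54 and -3.44 in LFYasEMF1/ult1-3 at 7 and 15 days, below -0.36 and -1.80 in LFYasEMF1. The change was -2.91 ± 1.08 (SE; adjusted p = 0.212, limma), but -0.73 ± 1.18 (SE; adjusted p = 0.752, limma) with slide as a block. HEC1 had log2 levels of -3.01 and -1.08 in the double mutant, and changed by -1.57 ± 0.92 (SE; adjusted p = 0.382, limma). SPT lay at -1.68 and -2.02, and changed by -1.24 ± 0.66 (SE; adjusted p = 0.34, limma), which became 0.33 ± 0.30 (SE; adjusted p = 0.553, limma) with slide as a block. HEC3 lay at -4.88 and -6.44, and its groups overlapped, with a change of -0.84 ± 0.78 (SE; adjusted p = 0.585, limma) and of 0.65 ± 0.91 (SE) with slide as a block.

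Against WT, the double mutant had no member past the test in limma, beside 0.81% of all genes, and 0 of 7 had an unadjusted p under 0.05, beside 15.9%. HEC3 came nearest, with 1.39 ± 0.68 (SE; adjusted p = 0.36, limma). At 15 days, where both WT arrays were at background for HEC3, the double mutant was at least 2.85-fold higher (adjusted p = 1, limma). Against the WT array of the same slide, the double mutant differed at 7 and 15 days by 1.16 and 3.11 for HEC3, by 1.09 and 2.84 for HEC2 and by -1.53 and 1.96 for HEC1, each 1 array against 1 with no test. At 15 days 1.1% of all genes reached the HEC3 difference, 1.37% that of HEC2 and 2.43% that of HEC1. The differences of ult1-3 and the double mutant at 15 days share 1 WT array, replicate 2. It was the lowest of all arrays for HEC1, HEC2 and HEC3, at -3.04, -6.28 and -9.55. With slide as a block HEC3 changed by 2.14 ± 0.64 (SE; adjusted p = 0.121, limma) and HEC2 by 1.97 ± 0.83 (SE; adjusted p = 0.202, limma). ALC differed from WT by 0.31 ± 0.35 (SE; adjusted p = 0.671, limma; 95% interval -0.49 to 1.12). Against ult1-3, again no member passed in limma, beside 0.385% of all genes, and 0 of 7 had an unadjusted p under 0.05, beside 3.54%.

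**Figure D3:**
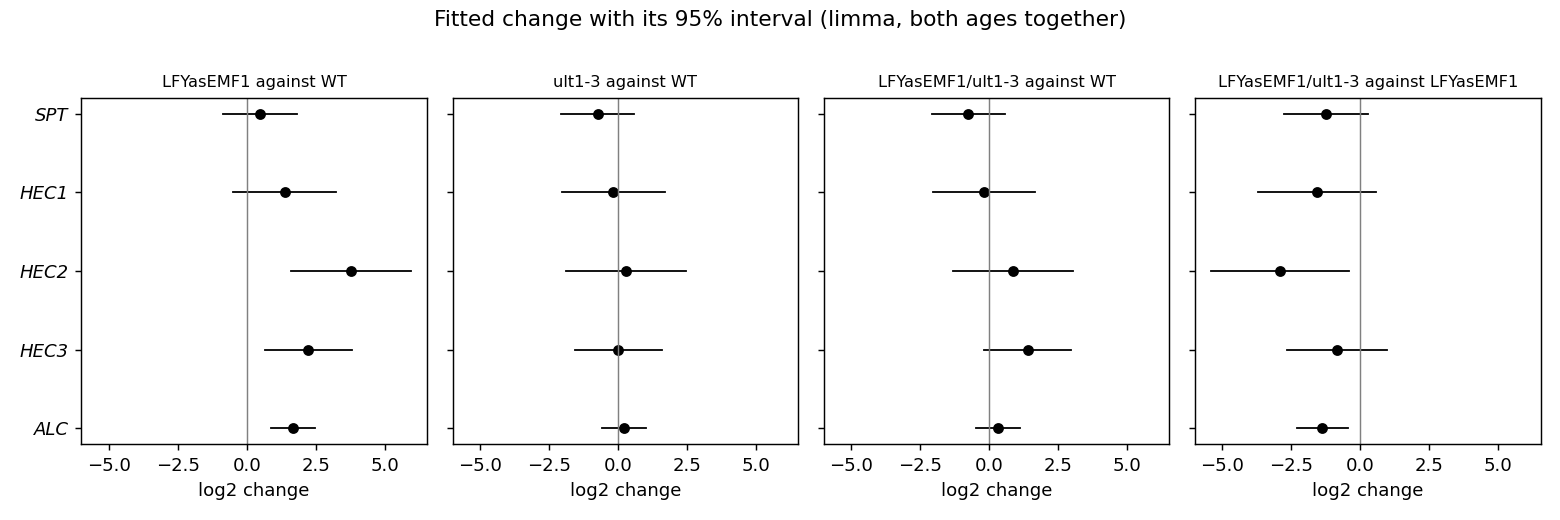
Points are fitted log2 changes over both ages and lines their 95% intervals from limma, for the 5 members measured on at least 3 arrays, in 4 comparisons named above the panels. In LFYasEMF1 against WT the intervals of HEC2, HEC3 and ALC lie above 0, and ALC runs from 0.88 to 2.49, though none passed the test after adjustment over all genes. In the double mutant against LFYasEMF1 those of HEC2 and ALC lie below 0, and none passed there either. That contrast crosses slides throughout, and the fit drawn has no slide term.

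Between 7 and 15 days in WT, no gene passed in limma (0% of all genes), and 1 of 7 members had an unadjusted p under 0.05, beside 3.64% of all genes. That member was HEC3. Its WT levels of -4.70 and -6.04 at 7 days and -7.92 and -9.55 at 15 days, the latter at background, did not overlap, a pattern that 15% of all genes showed in that direction. HEC3 was at least 5.97-fold lower at 15 days (unadjusted p = 0.00368, adjusted p = 1, limma). WT replicate 1 of both ages lay on slide 1 and replicate 2 on the other slides; with the replicate number as a block HEC3 was called (-3.36 ± 0.62 SE, adjusted p = 3.58e-05, limma), as were 235 of all genes. That fit has 1 residual degree of freedom and gave SPT, HEC1, HEC2, HEC3 and ALC the same SE. HEC3 was also lower at 15 than at 7 days in LFYasEMF1, ult1-3 and LFYasEMF1/ult1-3, each with 1 array per age. No member passed limma's test of a difference between the ages in the change of a mutant against WT, nor did any gene (0%). At an unadjusted p under 0.05 there were 0 of 7 members for each mutant, beside 1.67% of all genes for LFYasEMF1, 0.774% for ult1-3 and 2.11% for the double mutant.

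The members did not share 1 pattern over the 10 arrays. HEC1 and HEC2 were the most alike, with a Pearson r of 0.82 over 10 arrays, while HEC1 and HEC3 had 0.07 and SPT and ALC 0.15. These arrays share slides and genotypes, and the coefficients are descriptions. Among 20862 genes measured on at least 3 arrays, the gene most like ALC was AT5G02230 with an r of 0.95, the gene most like HEC2 was AT1G09580 with 0.96, the gene most like HEC1 was AT5G54940 with 0.96, and the gene most like HEC3 was AT5G47550 with 0.98. For SPT it was AT2G26440, followed by ERD6 and ALDH5F1, each with 0.98. HEC1 and ALC lie near each other on chromosome 5 with 4 genes between them in the reference annotation. In LFYasEMF1 against WT these were 0.08 ± 0.28 for RALFL34, 1.13 ± 0.72 for MAPKKK19, -1.15 ± 0.44 for AT5G67090 and -0.09 ± 0.37 for ICU2 (log2 change ± SE), and none passed.

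The genes that act upstream in the carpel gave a different picture from the members in LFYasEMF1. All 5 carpel identity MADS genes were called higher than in WT in limma, beside 0.926% of all genes. Their median change was 5.16 on the log2 scale, beside 0.0025 over all genes. The count includes STK, which passed the filter only through arrays other than WT. The list was chosen with earlier results of these data known. SHP2, which acts with SHP1 upstream of IND and ALC at the valve margin, had log2 levels between -5.91 and -4.83 on the 4 WT arrays and of -0.40 and -0.36 in LFYasEMF1. It rose by 5.16 ± 0.49 (SE, 35.8-fold; adjusted p = 0.00168), SHP1 by 4.27 ± 0.60 (SE; adjusted p = 0.0137) and SEP3, a partner of the other MADS proteins, by 4.35 ± 0.56 (SE; adjusted p = 0.00887, all limma). STK, an ovule identity gene, was at background in WT, so it entered the test only through other arrays. It was at least 87.5-fold higher in LFYasEMF1 (adjusted p = 0.00206, limma).

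AG, the carpel and stamen identity gene, has more than 1 probe, and its values depend on which is used. With the brightest probe that has a value on all 10 arrays it rose by 5.96 ± 0.51 (SE; adjusted p = 0.00108, limma) in LFYasEMF1. A brighter probe that lacks WT replicate 1 at 15 days, an outlier spot, gave 4.71 ± 0.45 (SE; adjusted p = 0.00356, limma). In the double mutant the choice decides the call: against WT the complete probe gave 3.05 ± 0.51 (SE; adjusted p = 0.0486) and the other 1.43 ± 0.45 (SE; adjusted p = 0.23), and against LFYasEMF1 they gave -2.92 ± 0.59 (SE; adjusted p = 0.073) and -3.28 ± 0.52 (SE; adjusted p = 0.0491, all limma). The rule that a probe needs all 10 arrays was set after these values had been seen. No member changed probe or call with it.

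Other floral genes rose as well in LFYasEMF1. Of 4 markers of other floral organs 3 were tested and passed, and AMS was not tested. AP1 was at least 135-fold and AP3 at least 169-fold higher than in WT, and PI rose 34.6-fold (adjusted p = 0.00152, 0.00077 and 0.000369, limma). AP1 and AP3 were well above background on no WT array. They entered the test only through other arrays, and their p-values carry that limit. SUP, which limits stamens and acts in the ovule, was at least 2.64-fold higher (adjusted p = 0.00218, limma), and was the 1 gene of 10 ovule regulators tested that passed. SUP too was well above background on no WT array and entered the test only through other arrays. In the double mutant against WT, AP1 (at least 9.89-fold), AP3 (at least 12.4-fold) and PI (10.9-fold) were higher too, with adjusted p of 0.0495, 0.0227 and 0.00471 (limma). SUP was lower in the double mutant than in LFYasEMF1, at least 1.53-fold (adjusted p = 0.0221, limma). The part of these floral organ genes in the levels of the members was not tested.

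The remaining lists had no gene past the test in LFYasEMF1 against WT in limma. Of 4 other YABBY genes, relatives of CRC and INO, 0 passed, with a median change of 0.66 and values from 0.25 (YAB3) to 0.81 (YAB2). Of 8 PIF-type bHLH genes, relatives of SPT and ALC, 0 passed, with a median of -0.27, and PIF1 gave 0.50, PIF3 0.39, PIF4 -0.62 and PIF5 -0.18. With slide 1 against slides 2 and 3 as a block, the slide term was -1.40 ± 0.28 (SE) for PIF1 and -0.91 ± 0.24 (SE) for PIF5. For PIF3 and PIF4 it was -0.15 ± 0.33 and 0.03 ± 0.28 (SE). Of 11 style and gynoecium genes tested 0 passed, with a median of 0.02, 7 above 0 and 4 below. Of those below 0, STY1 gave -0.94 ± 0.28 (SE, adjusted p = 0.207, limma) and NGA1 -0.06.

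Of 6 fruit valve and replum genes 0 passed, with a median of 0.41, 3 above 0 and 3 below. FUL, which acts in the valves against SHP1 and SHP2, gave 2.54 ± 0.99 (SE; adjusted p = 0.361, limma) and RPL, its counterpart in the replum, 1.02 ± 0.24 (SE; adjusted p = 0.111, limma). FUL and RPL are among the 3 above 0. Of 9 known targets and effectors of these factors 0 passed, with a median of -0.12, 2 above 0 and 7 below. PID, a kinase gene of auxin transport that HEC and IND proteins are known to act on, gave 0.25 ± 0.28 (SE), WAG2 -0.01 ± 0.29 (SE), and the gibberellin gene GA3OX1 -0.69 ± 0.62 (SE). The list changes come from the fit of genotype and age without slide. With slide 1 against slides 2 and 3 as a block, the slide term was -1.74 ± 0.35 (SE) for GA3OX1 and -2.44 ± 0.77 (SE) for FUL. For RPL, PID and WAG2 it was 0.32 ± 0.25, 0.29 ± 0.31 and 0.02 ± 0.33 (SE).

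**Figure D4:**
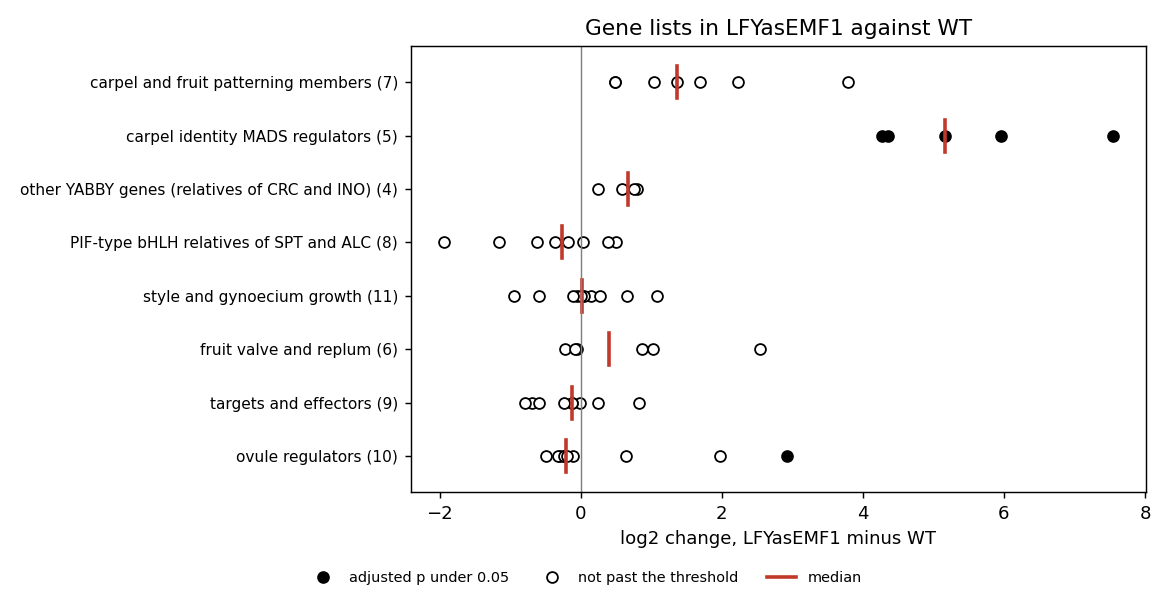
Each point is the fitted log2 change of 1 gene in LFYasEMF1 against WT, by list on the vertical axis with the number of genes tested in brackets; filled points passed an adjusted p of 0.05 and red bars are medians. The 5 MADS genes are filled and lie at 4.27 or above, while the 7 members are open with a median of 1.37. STK and SUP are among the filled points and were well above background on no WT array.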

How the data were processed

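Scanned images were read by the authors with Agilent Feature Extraction 10.7.1.1, according to the submitters' processing notes. Per the file headers, the deposited processed signal is a linear intensity from which background was subtracted within each array. Intensity values also fill the deposited value table, whose exact scale is not given in the sources used here, and served as an alternative. Outlier spots were left out, spots of a probe were averaged, and log2 of the signal over the array's 75th percentile was taken. Probes had to be well above background on at least 1 array and to have a value on all 10 arrays; the last condition was added after values had been seen. The brightest probe stood for a gene, giving 22353 genes. Accessions were named through a RefSeq table of assembly TAIR10.1 (34358 of 43603 probes).

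The tests used limma (version 3.58.1, R version 4.3.3) with Benjamini-Hochberg adjustment over all genes, at 0.05. Mutants were compared in a fit of genotype and age to 10 arrays (5 residual degrees of freedom), so that a mutant's samples are its 2 ages. Changes at 1 age came from 8 group means (2 residual degrees of freedom), and WT ages from 4 arrays. A fold is given as "at least" where 1 side was well above background on no array, from the dimmest signal that passed that flag on the array. The fit was tested on simulated data. All members, the 55 list entries and 18 markers were set as named genes, and only some of the list entries and markers are given above. Likeness took the 3 highest Pearson r. The members and lists were chosen with earlier results of these data known.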

Additional observations from a re-analysis of the deposited data

How the results depend on the processing

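The count of members past the test changed in 2 comparisons. In LFYasEMF1 against WT it was 0 and became 1 (ALC) with quantile normalization (adjusted p = 0.0452, limma), the deposited value table (0.0439), normexp on median signals (0.0384), the slide block (0.0434) and slide 1 against slides 2 and 3 as a block (0.0323), while the other settings on all 10 arrays left it at 0; leaving out 1 array at a time gave 0 to 1. In WT at 15 against 7 days it was 0 and became 1 (HEC3, adjusted p = 3.58e-05, limma) with the replicate block; replicate 1 of both ages lay on slide 1 and replicate 2 on slides 2 and 3, the deviations of same-numbered arrays correlated at 0.355 over 22353 genes, and 1 residual degree of freedom is left. In the other 5 comparisons the count stayed at 0 in every setting run. The block of slide 1 against slides 2 and 3, the fit within slides 2 and 3 and the keeping of probes with a missing array were chosen after seeing the data. Keeping those probes (22477 genes) changed no member's call, and its effect on AG is given with that gene.

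The values below are those of SPT, HEC1, HEC2, HEC3 and ALC; CRC and IND, measured on fewer than 3 arrays, were not followed gene by gene, though CRC's same-slide difference in LFYasEMF1 (-0.72 at 7 days) is opposite to its fitted change of 1.04. Values that changed sign were uncalled before and after, and the cause was not tested. With slide as a block, in either form, SPT turned to -0.30 in LFYasEMF1 against WT, to 0.0548 in ult1-3 against WT, to 0.0322 in the double mutant against WT, to 0.33 in the double mutant against LFYasEMF1 and to 0.28 for the interaction. HEC1 turned to 0.25 and ALC to -0.13 in ult1-3, HEC1 to 0.21 and ALC to -0.0367 in the double mutant against WT, and HEC3 to 0.65 in the double mutant against LFYasEMF1. The fits within slides gave the same values against WT. Quantile normalization and the deposited value table gave -0.054 and -0.0408 for HEC3 in ult1-3 against WT, 0.0106 and 0.00953 for HEC1 in the double mutant against WT, and in the double mutant against ult1-3 0.0519 and 0.053 for SPT and 0.0944 and 0.0948 for HEC1. Normexp gave 0.0626 for HEC1 in the double mutant against WT, and 0.17 for SPT and 0.16 for HEC1 against ult1-3, where the mean of the probes of SPT gave 0.00959.

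Leaving out 1 array at a time gave these ranges of log2 change. In ult1-3 against WT, HEC1 ran from -0.74 to 0.30, HEC2 from -0.34 to 0.96 and HEC3 from -0.75 to 0.78. In the double mutant against WT, HEC1 ran from -1.02 to 0.62 and ALC from -0.0878 to 0.71. Against LFYasEMF1, HEC3 ran from -1.87 to 0.19, and for the interaction from -1.88 to 0.17. Against ult1-3, SPT ran from -0.37 to 0.32, HEC1 from -0.86 to 0.78, HEC2 from -0.0591 to 1.21 and ALC from -0.30 to 0.50. In WT at 15 against 7 days, SPT ran from -1.55 to 0.53, HEC1 from -1.05 to 1.64 and HEC2 from -1.15 to 2.21.

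Over all genes, limma's count of calls moved from 375 to between 155 and 563 in LFYasEMF1 against WT, from 14 to between 5 and 18 in ult1-3, from 181 to between 68 and 327 in the double mutant against WT, from 201 to between 24 and 293 against LFYasEMF1, from 86 to between 23 and 104 against ult1-3, from 31 to between 0 and 55 for the interaction, and from 0 to between 0 and 235 for WT age. CRC, IND and INO lay at or near background on most arrays, which limits what can be said of them. Each mutant has 1 array per age.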
